A study of Mus musculus with 8 samples.

Results

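Syt5, Syt9 and Sytl4 are 3 genes of regulated exocytosis, chosen by symbol among the 3278 genes in a table that the submitters named as differentially expressed. All 3 were in the table, and the members were picked with earlier results of these data known. The tested group was MIN6-K8 cells given 40 µM selenomethionine (SeMet) for 6 days, with 4 libraries, and its controls were 4 libraries of MIN6-K8 cells left without treatment. Selenomethionine is methionine whose sulfur atom is replaced by selenium. MIN6-K8 is a beta cell line grown from a mouse insulinoma, and the labels give both groups as wild-type on the IT6 strain background. The series title states that the study asked how SeMet modulates insulin release. The 4 libraries of each group are called experimental replicates in the design text, with no word on separate cultures. The p-values below measure only the spread between these libraries, which may be technical.

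Insulin is stored in dense-core granules that fuse with the plasma membrane when calcium enters the beta cell. Synaptotagmins are membrane proteins with paired C2 domains. Many of them bind calcium and phospholipids and couple calcium entry to the SNARE proteins that drive fusion. Granuphilin, the product of Sytl4, binds the GTPase Rab27a on the granule and the syntaxin-Munc18 complex at the membrane, and so docks granules. In mice, loss of granuphilin is known to reduce docking and yet to raise insulin release. The names synaptotagmin 5 and synaptotagmin 9 have been exchanged in parts of the literature, so each gene is identified below by its Ensembl number and position.

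On GRCm38, the assembly also called mm10, Syt5 (ENSMUSG00000004961) lies on the minus strand of chromosome 7, from 4539765 to 4547541. Syt9 (ENSMUSG00000062542) lies on the plus strand of the same chromosome, from 107370728 to 107548656. Sytl4 (ENSMUSG00000031255) lies on the minus strand of chromosome X, from 133936385 to 133981812. GENCODE M21 has no exon of another gene overlapping an exon of any of the 3. The coding sequence of each gene's first transcript by number held 386 codons before the stop in Syt5, 491 in Syt9 and 673 in Sytl4. The most alike gap-free stretch of 90 coding bases of Syt5 and Syt9 is shown because it is where reads of these related genes would be hardest to tell apart. Capitals mark the bases that differ, and positions are counted from the A of the start codon.

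Syt5, coding bases 749 to 838: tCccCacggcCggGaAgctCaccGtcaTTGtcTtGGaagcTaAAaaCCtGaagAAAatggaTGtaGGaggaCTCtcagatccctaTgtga

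Syt9, coding bases 1088 to 1177: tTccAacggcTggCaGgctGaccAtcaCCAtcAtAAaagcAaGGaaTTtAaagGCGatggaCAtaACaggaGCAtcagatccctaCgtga

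These windows shared 60 of 90 bases. The longest identical run between the coding sequences of Syt5 and Syt9 was 14 bases (gtgtatgactttga, from base 583 of Syt5). It was 12 bases between Syt5 and Sytl4 and 11 between Syt9 and Sytl4. Of the 50-base stretches of each gene's first transcript, 0 of 1701 in Syt5, 0 of 3768 in Syt9 and 0 of 3704 in Sytl4 occurred on either strand in a transcript of another gene. No source used here states the read length.

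Both synaptotagmins were higher in SeMet cells and granuphilin was lower. Values are called normalised counts here, since they read as gene counts divided by a size factor for each library, an inference from the values. Syt5, a calcium-binding synaptotagmin of dense-core and synaptic vesicles, had 811, 854, 857 and 797 normalised counts in SeMet libraries 1 to 4, against 613, 646, 647 and 686 in Control libraries 1 to 4. Every SeMet library lay above every Control library. Its mean was 830 ± 30.3 in SeMet cells and 648 ± 30.1 in Control cells (SD, n = 4 each), a log2 fold change of 0.36 ± 0.05 (SE, on log2 of value + 1). The limma adjusted p was 1.18e-05 over the listed genes and 0.000199 over all 55450 annotated genes, with each unlisted gene set to a p of 1.

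Syt9, studied as a calcium sensor in insulin-secreting cell lines, had 1399, 1364, 1387 and 1338 normalised counts in SeMet libraries 1 to 4. Control libraries 1 to 4 held 1015, 1099, 1137 and 1085. Again the groups did not overlap, and the spread was narrower among SeMet libraries. The means were 1372 ± 26.9 in SeMet cells and 1084 ± 50.9 in Control cells (SD, n = 4 each). The log2 fold change was 0.34 ± 0.05 (SE; limma adjusted p = 4.14e-06 over the listed genes and 7e-05 over all annotated genes).

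Sytl4 had 8793, 8749, 8700 and 8880 normalised counts in SeMet libraries 1 to 4, against 11992, 11780, 12079 and 12020 in Control libraries 1 to 4. The lowest Control library stood 0.41 above the highest SeMet library on the log2 scale. The corresponding gaps between the nearest libraries of the groups, with SeMet above Control, were 0.21 for Syt5 and 0.23 for Syt9. Mean Sytl4 was 8781 ± 76.5 in SeMet cells and 11968 ± 131 in Control cells (SD, n = 4 each), a ratio of 0.734. The log2 fold change was -0.45 ± 0.03 (SE; limma adjusted p = 1.29e-09 over the listed genes and 2.19e-08 over all annotated genes).

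**Figure D1:**
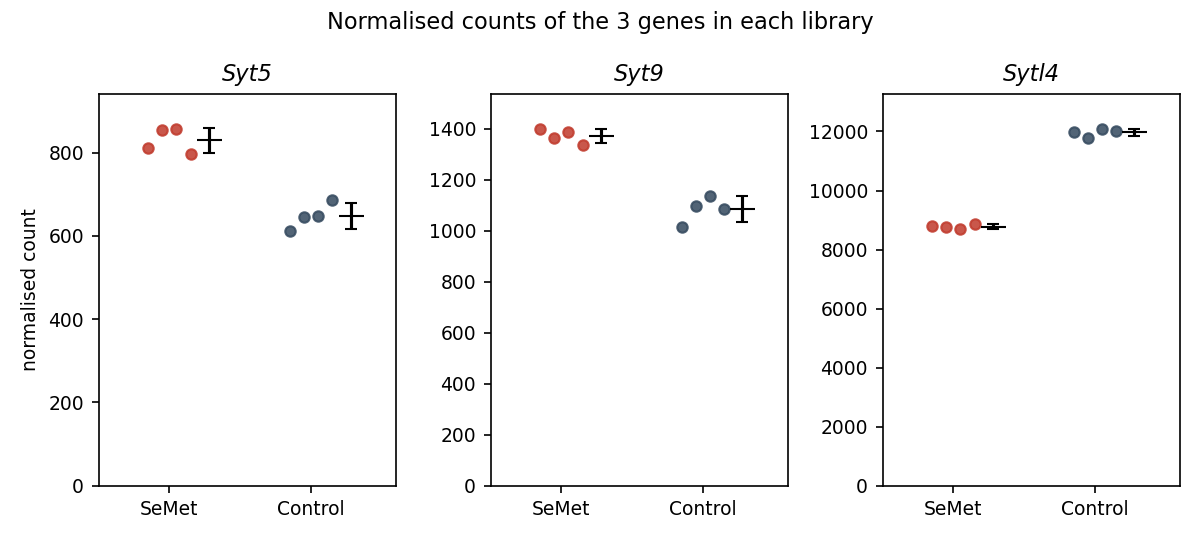
Normalised counts (vertical axes, from 0) of Syt5, Syt9 and Sytl4 in each of 4 SeMet and 4 Control libraries; points are libraries 1 to 4 from left to right, and the bar beside them is the mean with its SD. Syt5 and Syt9 were higher in all SeMet libraries, and Sytl4 lay between 8700 and 8880 in SeMet libraries, below all Control libraries.

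These calls have to be read against a table of genes already chosen for differing. Over the listed genes, 3277 of 3278 passed the limma threshold of 0.05 (100% when rounded; 47% higher and 53% lower in SeMet), so passing it says nothing particular about the members. With the adjustment over all annotated genes, 71.4% of the listed genes passed (33.1% higher and 38.2% lower), and the 3 members were among them. The 4 SeMet and 4 Control libraries did not overlap for 85.8% of listed genes (40.3% higher and 45.6% lower in SeMet), and for all 3 members. In an exact two-sided permutation test over the 8 libraries, each member reached p = 0.0286, the smallest that 70 arrangements allow. Any gene whose groups do not overlap gets this value, so it adds no support for the members.

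The changes were of moderate size within the table. Among the listed genes, 31.4% had a larger absolute log2 fold change than Syt5, 33.2% than Syt9 and 23.2% than Sytl4. The median absolute log2 fold change over all listed genes was 0.25. Sytl4 ranked higher by normalised count, a measure that is not corrected for gene length and so does not rank abundance. By that measure 97 listed genes had a higher mean than Sytl4, and 50 differed by more between the groups. In SeMet cells its mean dropped by 3187 normalised counts. Syt5 and Syt9 were 182 and 288 normalised counts higher in SeMet cells. Their sum was 2202 ± 47.1 in SeMet cells and 1732 ± 71.3 in Control cells (SD, n = 4 each). That sum differed by 0.35 ± 0.03 on the log2 scale (SE; exact two-sided permutation p = 0.0286). With Syt5 and Syt9 each already higher in every SeMet library, the p-value of the sum was fixed beforehand and adds no support.

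Ratios taken within a library do not depend on how the libraries were scaled, and they set the 3 responses against each other. The ratio of Syt9 to Sytl4 in normalised counts was 0.156 ± 0.00407 in SeMet libraries and 0.0906 ± 0.00428 in Control libraries (SD, n = 4 each). On the log2 scale it was 0.79 higher in SeMet (SE 0.04; exact two-sided permutation p = 0.0286, adjusted over 3 ratios p = 0.0429). The range of all differences between a SeMet and a Control library, an exact interval of 97.1% coverage, was 0.68 to 0.91. Syt5 to Sytl4 was 0.0945 ± 0.00422 in SeMet libraries and 0.0541 ± 0.00251 in Control libraries (SD, n = 4 each). This ratio was 0.80 higher on the log2 scale (SE 0.05; exact permutation p = 0.0286, adjusted p = 0.0429), with an interval of 0.65 to 0.95. Since Syt5 and Syt9 were already higher and Sytl4 already lower in every SeMet library, both ratios to Sytl4 had to separate. Their permutation p-values were therefore fixed beforehand and add no support beyond the single genes.

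The ratio of Syt5 to Syt9 showed no such separation. It was 0.580, 0.626, 0.618 and 0.596 in SeMet libraries 1 to 4, against 0.604, 0.588, 0.569 and 0.632 in Control libraries 1 to 4. The groups overlapped through most of their range. The log2 difference was 0.02 ± 0.04 (SE; exact two-sided permutation p = 0.714, adjusted p = 0.714), and the interval of 97.1% coverage ran from -0.12 to 0.14. These data therefore do not separate the response of Syt5 from that of Syt9, and leave room for a difference of that size either way.

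**Figure D2:**
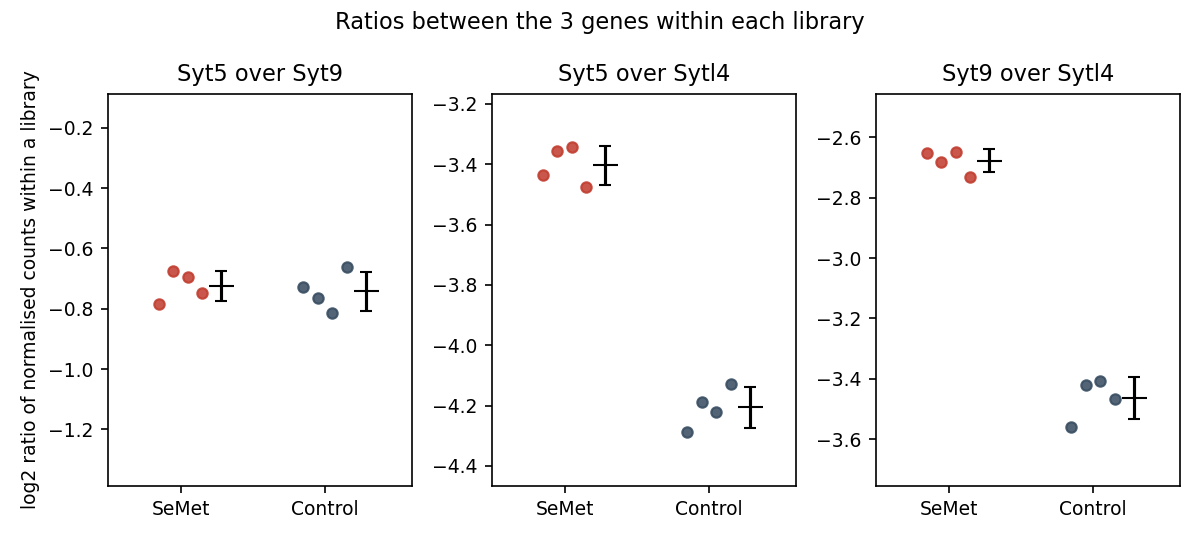
Log2 ratio of normalised counts of 2 genes within each library (vertical axes, each spanning the same range), for SeMet and Control libraries; points are libraries 1 to 4 from left to right, and bars are the mean with its SD. The SeMet and Control libraries overlap for Syt5 over Syt9 and are apart for both ratios to Sytl4, whose means differ by 0.80 (Syt5) and 0.79 (Syt9).

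Sytl4 was measured with very little spread. The SD of its log2 values within groups was 0.0143, and 1 of the other listed genes had a smaller one. Read numbers here are estimates from the step between values, a reading that failed a check in most libraries. In Control libraries 3 and 4 the smallest value had to be taken as 3 and 2 reads. By that reading Sytl4 rested on 8744 to 13589 reads, for which counting alone would give an SD of 0.0143 on the log2 scale, about the same as observed. The 288 listed genes with a mean of at least 5000, a limit chosen after the values were seen, had a median SD of 0.0514. The median of their ratios of SD to counting SD was 3.45. By the same estimate Syt5 rested on 533 to 917 reads and had 1.12 times the counting spread, and Syt9 on 883 to 1465 reads with 1.26 times. Over all listed genes the median of this ratio was 1.58. The table had been selected beforehand, and whether that selection went by spread is not known.

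**Figure D3:**
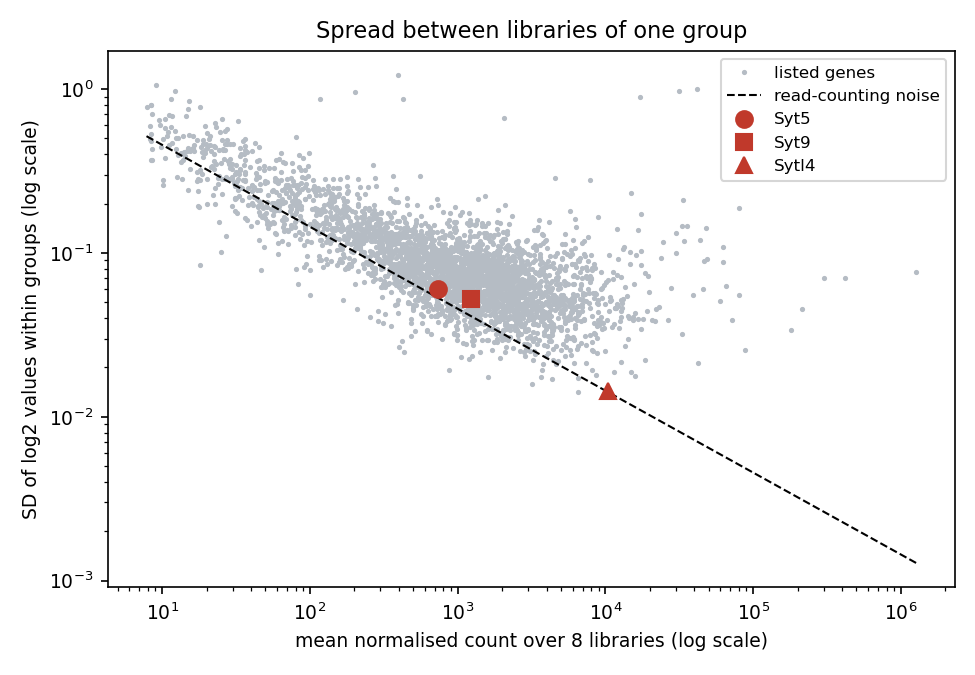
SD of log2 values within groups (vertical log axis) against the mean normalised count over 8 libraries (horizontal log axis) for all 3278 listed genes in grey, with Syt5, Syt9 and Sytl4 in red; the dashed line is the SD that counting the estimated reads alone would give. Sytl4 lies on the line at an SD of 0.0143, and Syt5 and Syt9 lie just above it.

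Levels of different genes can be compared only per length. Per kilobase of merged exons, Sytl4 was at 1713 ± 14.9 normalised counts in SeMet cells and 2335 ± 25.5 in Control cells (SD, n = 4 each). Syt5 was at 349 ± 12.7 in SeMet cells and 272 ± 12.7 in Control cells, and Syt9 at 345 ± 6.76 in SeMet cells and 272 ± 12.8 in Control cells. The granuphilin transcript was thus 4.97 ± 0.132 times as abundant as Syt9 in SeMet cells and 8.59 ± 0.418 times in Control cells. The order of Syt5 and Syt9 depended on the length used. With merged exons the ratio of Syt5 to Syt9 per kilobase was 0.970 to 1.05 in SeMet libraries and 0.951 to 1.06 in Control libraries. With the first transcript alone it was 1.27 to 1.37 in SeMet libraries and 1.24 to 1.38 in Control libraries. By that length Sytl4 was 6.51 ± 0.172 times as abundant as Syt9 in SeMet cells and 11.2 ± 0.548 times in Control cells.

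Of 17 synaptotagmin genes, 7 were listed, and neither Syt5 nor Syt9 was the most abundant of them. Per kilobase of merged exons the highest was Syt13, an atypical synaptotagmin without calcium binding, with 5328 ± 179 in SeMet cells and 6138 ± 104 in Control cells (SD, n = 4 each). Syt7, a high-affinity calcium sensor of insulin granules, followed with 1345 ± 22.2 in SeMet cells and 1480 ± 59.1 in Control cells. Syt11, which does not bind calcium, was at 940 ± 20.3 in SeMet cells and 832 ± 38.0 in Control cells. Syt5 and Syt9 overlapped each other and the synaptotagmin-like gene Sytl5 in both groups. They stood above Syt3, with 220 ± 8.37 in SeMet cells and 177 ± 8.50 in Control cells, and far above Syt16, with 15.8 ± 1.40 in SeMet cells and 8.79 ± 1.36 in Control cells. Syt5 and Syt9 together made up 8.12% ± 0.240 of the summed level per kilobase of the listed synaptotagmins in SeMet cells and 5.93% ± 0.259 in Control cells. The sum covers listed genes only. Syt1, Syt2, Syt4, Syt6, Syt8, Syt10, Syt12, Syt14, Syt15 and Syt17 were not analysed here.

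**Figure D4:**
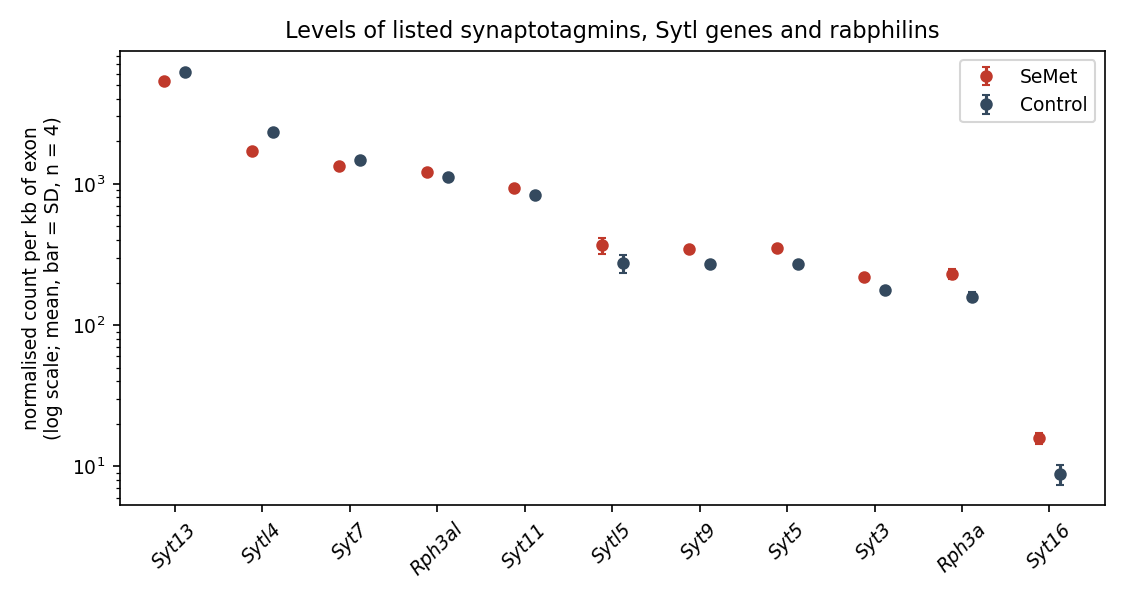
Normalised count per kilobase of merged exons (vertical log axis; mean, bar is the SD, n = 4) of 11 listed genes, the synaptotagmins, the synaptotagmin-like genes and the rabphilin genes, in SeMet and Control cells. Sytl4 is second in both groups, at 1713 and 2335, and Syt5 and Syt9 lie at the same level, 349 and 345 in SeMet cells.

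The listed synaptotagmins divided by direction. Besides Syt5 and Syt9, 3 rose. Syt3, a calcium-binding synaptotagmin, was at 651, 713, 689 and 691 normalised counts in SeMet libraries 1 to 4, against 543, 532, 591 and 542 in Control libraries 1 to 4. Its log2 fold change was 0.31 ± 0.06 (SE; limma adjusted p over all annotated genes = 0.00131), next to those of Syt5 and Syt9. Syt11 rose by 0.18 ± 0.04 on the log2 scale, and Syt16, at a low level, by 0.84 ± 0.13. The more abundant Syt13 and Syt7 fell, with log2 fold changes of -0.20 ± 0.04 and -0.14 ± 0.04 (limma adjusted p over all annotated genes = 0.00123 and 0.0305). All 7 passed under both adjustments, 5 higher and 2 lower. Of all listed genes, 47% were higher and 53% lower over the listed genes, and 33.1% and 38.2% over all annotated genes. The median log2 fold change of the 7 was 0.31, against -0.13 over all listed genes. These counts and this median include Syt5 and Syt9, which were picked with earlier results known. Exons of Gm26859 overlap 5.13% of Syt7 and those of Gm29587 overlap 2.00% of Syt16, both on the opposite strand.

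Among 11 synaptotagmin-like and other Rab27 or Rab3 effector genes, 4 were listed. Over the listed genes 3 were higher and 1, Sytl4, was lower, where 47% of all listed genes were higher and 53% lower. Over all annotated genes 1 was higher, 1 lower and 2 not called, where 33.1% of all listed genes were higher and 38.2% lower. Sytl4 itself was picked with earlier results known. Sytl5, encoding another Rab27-binding relative of granuphilin, had 754, 752, 934 and 952 normalised counts in SeMet libraries 1 to 4, against 773, 595, 580 and 577 in Control libraries 1 to 4. Control library 1 overlapped the SeMet libraries. With a log2 fold change of 0.43 ± 0.11 (SE), Sytl5 was called when limma p-values were adjusted over the listed genes (adjusted p = 0.00503). It was not called when they were adjusted over every annotated gene (limma adjusted p = 0.0851). Rph3a, encoding the Rab3 and Rab27 effector rabphilin, averaged 1068 ± 87.3 in SeMet cells and 738 ± 53.0 in Control cells (SD, n = 4 each). It rose by 0.53 ± 0.06 on the log2 scale (limma adjusted p over all annotated genes = 1.1e-05). Rph3al, encoding the related granule protein Noc2, was at 4654 ± 235 in SeMet cells and 4264 ± 84.1 in Control cells, with overlapping libraries. The log2 fold change was 0.12 ± 0.04, called by the first adjustment only (limma adjusted p = 0.0889 by the second).

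The GTPases that these effectors bind were listed in part. Of 16 Rab27 and Rab3 genes, relatives and regulators, 5 were listed, 3 higher and 2 lower under both adjustments. The shares of all listed genes were 47% higher and 53% lower over the listed genes, and 33.1% and 38.2% over all annotated genes. Rab3b, encoding a GTPase of secretory vesicles, averaged 962 ± 12.1 normalised counts in SeMet cells and 720 ± 45.2 in Control cells (SD, n = 4 each), a log2 fold change of 0.42 ± 0.05 (SE). Exons of 8030443G20Rik overlap 317 of the 3524 exonic bases of Rab3b on the opposite strand. Rab3d and Rab37 rose by 0.18 ± 0.05 and 0.16 ± 0.04 on the log2 scale, each with overlapping libraries. Madd, which activates Rab3 proteins, and Tbc1d10b, a Rab GTPase-activating protein, fell by 0.14 ± 0.04 and 0.15 ± 0.04. Rab27a and Rab27b, the partners of granuphilin, were not among the listed genes and were not analysed here.

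SNARE genes encode the fusion machinery on which the sensors act. Of 15 exocytic SNARE genes, 7 were listed, 2 higher and 5 lower over the listed genes, where 53% of all listed genes were lower. Over all annotated genes 1 was higher, 3 were lower and 3 were not called, where 38.2% of all listed genes were lower. Stx2, a plasma membrane syntaxin, averaged 530 ± 21.1 in SeMet cells and 641 ± 5.58 in Control cells (SD, n = 4 each), a log2 fold change of -0.28 ± 0.05 (SE). The vesicle SNARE genes Vamp3 and Vamp4 fell by 0.23 ± 0.05 and 0.20 ± 0.04 on the log2 scale, and Snap47 rose by 0.23 ± 0.04. Exons of Jmjd4 overlap 11.6% of Snap47. Stx3, another syntaxin gene, had a log2 fold change of -0.16 ± 0.05 and passed over the listed genes only. The neuronal-type core genes Stx1a, Snap25 and Vamp2 were not analysed here.

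Of 41 SNARE regulators and active zone genes, 9 were listed, 4 higher and 5 lower over the listed genes, and 2 higher and 2 lower over all annotated genes. Among all listed genes, 47% were higher and 53% lower by the first adjustment, and 33.1% and 38.2% by the second. Rims3, a small member of the RIM scaffold family, averaged 1565 ± 53.2 normalised counts in SeMet cells and 2094 ± 139 in Control cells (SD, n = 4 each), a log2 fold change of -0.42 ± 0.05 (SE). The priming factor gene Unc13a fell by 0.25 ± 0.04 on the log2 scale. The vesicle glycoprotein genes Sv2b and Sv2c rose by 0.19 ± 0.03 and 1.34 ± 0.24. Sv2c was at a low level, with 49.0 ± 11.9 normalised counts in SeMet cells and 18.9 ± 4.96 in Control cells. Cplx2, Stxbp5, Ppfia3, Nsf and Pclo had log2 fold changes between -0.19 and 0.24 and passed over the listed genes only. Of these, Cplx2, encoding a complexin, and Stxbp5, encoding the fusion inhibitor tomosyn, were no longer called after either rescaling of the libraries. The limma adjusted p for Cplx2 was then 0.0649 by the median ratio and 0.111 by the sum, and for Stxbp5 0.0548 by the median ratio and 0.0822 by the sum. Exons of Colgalt1 overlap 3.92% of Unc13a, and exons of Gm26918 and Gm26954 overlap 4.12% of Pclo, on the opposite strand.

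Calcium entry precedes the step at which synaptotagmins act. Of 15 voltage-gated calcium channel genes, 4 were listed, 2 higher and 2 lower, against 47% and 53% of all listed genes. Over all annotated genes 1 of the 4 passed, where 71.4% of all listed genes did. That gene was Cacna1b, encoding the pore of the N-type channel, with 395 ± 41.2 normalised counts in SeMet cells and 502 ± 44.9 in Control cells (SD, n = 4 each), a log2 fold change of -0.34 ± 0.08 (SE). The T-type channel genes Cacna1g and Cacna1h had log2 fold changes of 0.20 ± 0.07 and -0.15 ± 0.05, and the auxiliary subunit gene Cacna2d1 of 0.16 ± 0.05. Among 11 other C2 domain genes, Fer1l6 rose by 0.21 ± 0.04 and Esyt2, which tethers the endoplasmic reticulum to the plasma membrane, fell by 0.18 ± 0.05. None of 12 exocyst genes was listed.

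Over all these lists, 137 of 138 genes were found in the annotation, which holds 55450 genes, where the table holds 3278. Of the 138, 38 were in the table, a share that was not tested against that of all annotated genes. Apart from Syt5, Syt9 and Sytl4, 18 were higher and 17 lower over the listed genes (51.4% higher, against 47% of all listed genes). Over all annotated genes 11 were higher, 11 lower and 13 not called, so that 62.9% were called, against 71.4% of all listed genes. The SeMet and Control libraries did not overlap for 27 of 35, or 77.1%, against 85.8% of all listed genes. These shares were not tested against each other. The median absolute log2 fold change was 0.20 for these 35 and 0.25 for all listed genes. The largest fall among the 38 was that of Sytl4, followed by Rims3.

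**Figure D5:**
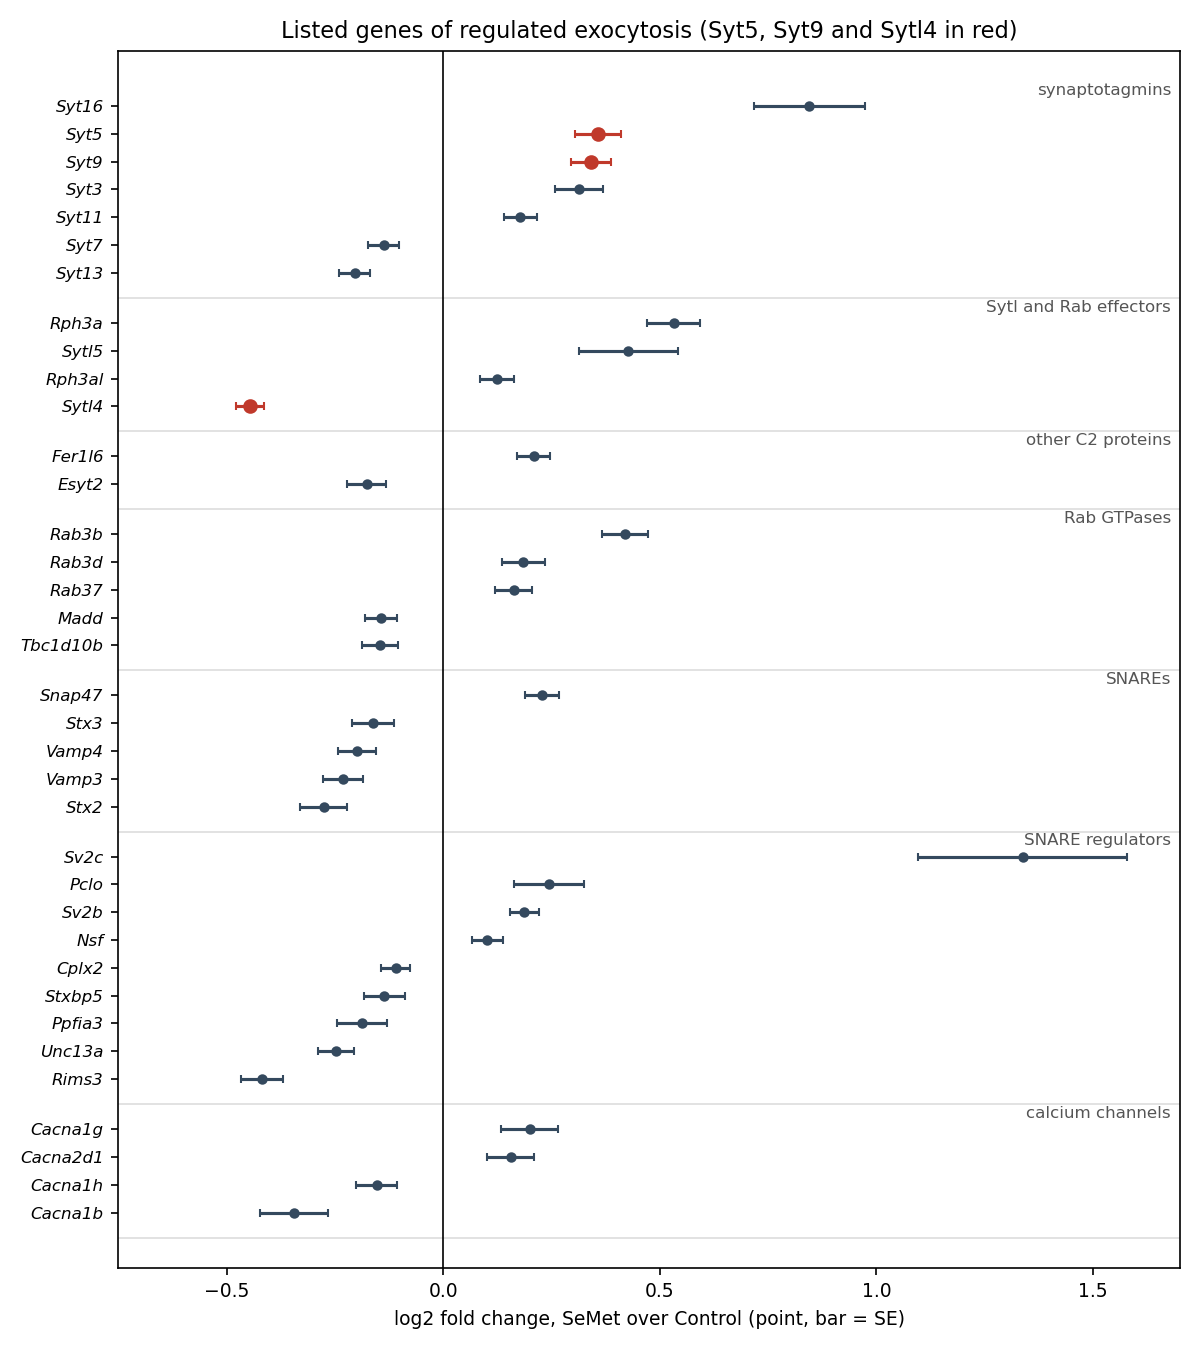
Log2 fold change, SeMet over Control (horizontal axis; point, bar is the SE), of 36 of the 38 listed exocytosis genes, grouped by list, with Syt5, Syt9 and Sytl4 in red. Syt5 at 0.36 and Syt9 at 0.34 lie right of 0, as do Syt3, Syt11 and Syt16, while Syt7 and Syt13 lie left of 0. Sytl4 at -0.45 lies at the far left.

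Genes of the most similar profile were found by the root mean square difference of centred log2 values over the 8 libraries. Nearest to Syt5 were Tmem14c (0.0311), Ndnf (0.0332) and Shisal1 (0.0413), and Syt9 ranked 10th with 0.0506. Nearest to Syt9 were Psmc2 (0.0293), Slc29a4 (0.0323) and Reep6 (0.0382), and Syt5 ranked 24th. Nearest to Sytl4 were Itpkb (0.0332), Pbx3 (0.0384) and Wdr35 (0.0395). Itpkb had 4101 ± 71.3 normalised counts in SeMet cells and 5675 ± 168 in Control cells (SD, n = 4 each). Psmc2 had 3479 ± 126 in SeMet cells and 2763 ± 79.6 in Control cells. With 2 groups, likeness over 8 libraries mostly reflects a fold change of the same size.

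All 12 beta cell markers were listed, and listing shows only that a gene was chosen as differing. Their levels were high in both groups. Insulin gene Ins2 averaged 1169270 ± 54381 normalised counts in SeMet cells and 1372590 ± 82803 in Control cells (SD, n = 4 each). The summed counts of the 12 were 1963690 to 2186790 in SeMet libraries and 2178540 to 2410450 in Control libraries, and these ranges overlapped. Over the listed genes 10 of the 12 were lower in SeMet cells, 8 of them also over all annotated genes, and the libraries of 10 of the 12 did not overlap. For all listed genes the shares were 53% lower, 38.2% lower over all annotated genes and 85.8% without overlap. The markers were not tested against these shares. Slc30a8, the zinc transporter of insulin granules, fell by 0.39 on the log2 scale, Ucn3 by 0.24 and the transcription factor gene Nkx6-1 by 0.20. Iapp, which encodes the granule peptide amylin, rose by 0.18, and G6pc2 had a log2 fold change of 0.12, called over the listed genes only. Of 7 alpha cell markers 4 were listed, summing to 2242 to 2558 in SeMet libraries and 1855 to 2216 in Control libraries. Within that sum Gcg, the glucagon gene, averaged 647 ± 76.9 in SeMet cells and 294 ± 37.0 in Control cells (SD, n = 4 each), a log2 fold change of 1.13 ± 0.09 (SE). Irx1 and Irx2 also rose (log2 fold changes of 0.26 and 0.30), while Gc fell by 0.30. Of 3 PP cell markers 1 was listed, at 164 to 235 in SeMet and 82.8 to 140 in Control libraries. Of 6 duct markers 1 was listed, at 10794 to 11740 in SeMet and 9518 to 10350 in Control libraries, and of 6 stromal markers 1, at 2.78 to 9.57 in SeMet and 11.1 to 20.1 in Control libraries. No delta, epsilon, acinar, endothelial or immune marker was listed, and no listed marker was at 0 in any library. The part of these markers in the changes of Syt5, Syt9 and Sytl4 was not tested. In RNA from whole cultures, fewer cells of a type and less RNA per cell cannot be told apart. By the estimate from the step, the listed genes held 9269698 to 9965372 reads in SeMet libraries and 8544454 to 11144953 in Control libraries.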

How the data were processed

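RNA of 8 MIN6-K8 libraries, 4 SeMet and 4 Control, was sequenced, and groups and replicate numbers come from the sample titles. Per the submitters' processing notes, STAR and featureCounts were used on mm10; no source used here gives their versions, settings or annotation, or the rule that chose the genes. The authors deposited 1 table of 3278 genes whose values are a signal, read here as counts divided by a size factor, since all values in a library were whole multiples of 1 step (0.885 to 1.15; tolerance 1e-06). The reads recovered from these steps did not pass a check against the table in most libraries, so no count test was run and read numbers are estimates. Counting spreads cover counting error only.

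After adding a pseudocount of 1 and taking log2, all 3278 genes were fitted in limma (version 3.58.1, under R 4.3.3 and with statmod 1.5.0), using a trended, robust variance and treatment as the only term, with Benjamini-Hochberg adjustment and no filter on low values. Fold changes on this scale understate changes of low genes. Single values used exact permutation tests. GENCODE M21 gave symbols for 3276 genes, positions and lengths. Members and gene lists were chosen with earlier results of these data known. Named are the members, every listed gene of the exocytosis lists and, per member, the 3 genes of nearest profile, apart from 2 genes of the lists that are counted but not reported here. The limma fit was tested on simulated data in which most genes were unchanged, unlike this table, where nearly all passed. The permutation and sequence steps were checked on short made-up inputs. Alternatives were another pseudocount (8), rescaling by the median ratio or by the listed sum without Ins1 and Ins2, a mean of at least 50, a replicate block, plain variance, adjustment over 55450 genes, and leaving out each library. Labels give no batch or date. The counting settings, including strand, are not given, so reads of overlapping genes cannot be told apart.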

Additional observations from a re-analysis of the deposited data

Results flagged for a closer look

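Among 100 groups of 4 values examined, 3 held a library far from the others, where chance flags about 1 group in 20. None was a value of Syt5, Syt9 or Sytl4 or of a ratio between them. Control library 1 held 773 normalised counts of Sytl5, against 577 to 595 in the other Control libraries. Without it the log2 fold change of Sytl5 was 0.53, against 0.43 with it. Control library 3 held 817 of Rph3a, against 710 to 713 in the others, and without it the log2 fold change was 0.58. Control library 4 held 11.5 of Sv2c, against 20.7 to 22.2 in the others, and without it the log2 fold change was 1.13.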

How the results depend on the processing

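The limma calls of Syt5, Syt9 and Sytl4 kept their direction and stayed past the threshold under all 15 alternatives. Leaving out 1 library at a time gave log2 fold changes of 0.33 to 0.38 for Syt5, 0.31 to 0.36 for Syt9 and -0.45 to -0.44 for Sytl4, the same ranges in the permutation test. It gave 0.78 to 0.83 for Syt5 over Sytl4, 0.76 to 0.81 for Syt9 over Sytl4 and 0.32 to 0.36 for the sum of Syt5 and Syt9. Syt5 over Syt9, never past the threshold, ranged from -0.0078 to 0.043 and turned below 0 without SeMet replicate 2 (-0.00062) or Control replicate 3 (-0.0078). Between 3260 and 3269 listed genes were called without 1 library. After rescaling, limma called 3163 by the median ratio and 3094 by the sum. The genes called higher stayed at 1541, while those called lower went from 1736 to 1622 and 1553. The background shares of higher and lower genes given above therefore hold for the values as deposited. Rescaling by the median ratio gave 0.40, 0.39 and -0.40 for Syt5, Syt9 and Sytl4. Same-numbered libraries correlated at -0.011 to 0.15, and 1 of 4 SeMet libraries correlated best with its own number. Such correlations, over genes chosen for differing, cannot decide whether the numbers pair the libraries, and the labels do not say. With the replicate block, limma called 3272 genes and kept the 3 members. Exact permutation within the 4 pairs of the block cannot go below p = 0.125, which was reached with log2 differences of 0.36, 0.34 and -0.45 for the members, 0.80 and 0.79 for the ratios to Sytl4 and 0.35 for the sum. Of 44 other named genes, none reversed and 13 lost the call over all annotated genes; Cplx2 and Stxbp5 also lost it after either rescaling.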

Other observations

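RefSeq promoter windows on GRCm38.p6, around the gene's start, were found for Syt9 and Sytl4. The Syt9 window was 79.3% G or C, a share that 1.297% of 32851 promoters reached or passed, and the Sytl4 window was 54.7%, which 44.4% reached or passed. The median promoter had 52.7%. On both strands, GGGCGG matched 3 times in Syt9 and 0 times in Sytl4, and 35.7% of promoters held it. TGACG (held by 20.8% of promoters), CACGTG (7.15%), ACGTG (19.6%, and contained in CACGTG) and TATAAA (13.6%) matched in neither window. These letter matches are descriptions, and no value here ties them to the change in either gene.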
